A study of Mus musculus with 10 samples.

Results

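The subject is a set of 40 genes that drive or mark the cell cycle and DNA replication, taken by symbol from GENCODE mouse M21 among the 48709 gene rows of each library. They were divided by phase into 23 genes of G1/S and replication and 17 genes of G2/M and mitosis. Polyadenylated RNA was sequenced from primary cultures of mouse hippocampal neurons, kept for 10 days in vitro. The 6 tunicamycin libraries came from cultures given 2 ug/mL tunicamycin for 6 h, and the 4 DMSO libraries from cultures given the solvent DMSO for 6 h. Tunicamycin prevents N-linked glycosylation of new proteins and is used to cause stress in the endoplasmic reticulum. The labels give no strain, sex or animal, and nothing in them ties each library to a culture of its own. The p-values below therefore reflect only how much these libraries vary, and that variation may be technical.

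Cells enter S phase when D cyclins with Cdk4 and Cdk6, and then E cyclins with Cdk2, release E2F factors from the retinoblastoma proteins. E2F factors switch on the genes that license origins, copy DNA and supply nucleotides. Cyclin A2, the B cyclins and Cdk1 then carry the cell through G2 and mitosis, whose genes are held off in resting cells by a repressor complex that acts at CHR elements (cell cycle genes homology regions). The CCAAT boxes of the same promoters are bound by the activator NF-Y. Neurons have left the cell cycle, and the dividing cells of a primary hippocampal culture are usually glia and progenitors. In bulk libraries, fewer cells of a type and less RNA per cell cannot be told apart.

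The promoters of members that fell, rose or were not called are shown first, because they carry the motifs of both phases. The genes printed were chosen by hand, and the shares over all members with a window follow. The sequences are the 200 bases before the start site, from RefSeq on GRCm38.p6, with motif matches in capitals. The E2F motif was searched as TTTCCCGC or TTTGGCGC or TTTCGCGC or TTTGCCGC, the CHR motif as TTTGAA or TTCGAA, and the CCAAT box as CCAAT, each on both strands, and no motif contains another. The licensing and helicase genes came from chr8:75109309-75109508 on the plus strand for Mcm5, chr1:128359706-128359905 on the minus strand for Mcm6, chr5:138171884-138172083 on the minus strand for Mcm7 and chr11:98907951-98908150 on the plus strand for Cdc6.
Mcm5: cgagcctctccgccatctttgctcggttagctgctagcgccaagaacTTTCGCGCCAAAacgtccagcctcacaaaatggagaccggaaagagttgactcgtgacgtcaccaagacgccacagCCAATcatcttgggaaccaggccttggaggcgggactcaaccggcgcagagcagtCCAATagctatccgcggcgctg
Mcm6: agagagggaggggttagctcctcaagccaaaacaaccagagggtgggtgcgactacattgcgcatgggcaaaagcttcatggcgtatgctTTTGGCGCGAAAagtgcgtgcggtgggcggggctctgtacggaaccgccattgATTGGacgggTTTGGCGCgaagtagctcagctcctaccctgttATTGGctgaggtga
Mcm7: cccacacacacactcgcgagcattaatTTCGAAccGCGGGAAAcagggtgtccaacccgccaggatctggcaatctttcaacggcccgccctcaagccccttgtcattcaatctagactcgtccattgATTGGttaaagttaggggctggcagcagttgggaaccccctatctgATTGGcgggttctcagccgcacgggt
Cdc6: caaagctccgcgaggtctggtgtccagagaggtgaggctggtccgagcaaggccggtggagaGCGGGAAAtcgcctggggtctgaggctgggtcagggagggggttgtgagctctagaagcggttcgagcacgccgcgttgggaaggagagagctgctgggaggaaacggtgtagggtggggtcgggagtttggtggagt
All 4 held an E2F match. Mcm7 had 2 windows, and the one with more E2F matches is printed. Of all G1/S genes with a window, 8 of 19 held an E2F match. In Mcm5 and Mcm6 a pair of matches on opposite strands overlapped and is printed as a single run of capitals. Mcm5 and Mcm6 fell with tunicamycin, Mcm7 rose, and Cdc6 was not called. The mitotic genes came from chr10:69352913-69353112 for Cdk1, chr11:99024190-99024389 for Top2a and chr4:118437344-118437543 for Cdc20, all on the minus strand.
Cdk1: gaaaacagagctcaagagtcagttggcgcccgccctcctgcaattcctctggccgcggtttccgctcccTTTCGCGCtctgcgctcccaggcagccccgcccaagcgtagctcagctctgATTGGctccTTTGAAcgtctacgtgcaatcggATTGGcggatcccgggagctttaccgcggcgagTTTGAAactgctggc
Top2a: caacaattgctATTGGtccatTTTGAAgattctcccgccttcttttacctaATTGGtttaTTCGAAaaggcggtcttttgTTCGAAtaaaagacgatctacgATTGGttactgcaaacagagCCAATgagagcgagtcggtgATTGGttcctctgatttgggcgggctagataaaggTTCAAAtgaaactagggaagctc
Cdc20: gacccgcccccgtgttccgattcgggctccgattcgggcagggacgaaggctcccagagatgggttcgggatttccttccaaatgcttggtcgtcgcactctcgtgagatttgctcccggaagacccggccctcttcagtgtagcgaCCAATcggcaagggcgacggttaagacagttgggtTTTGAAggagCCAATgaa
All 3 held CHR and CCAAT matches, and Cdk1 also held an E2F match. Its CHR matches began 71 and 15 bases before the start. That of Cdc20 began 18 bases before the start. Cdk1 and Top2a fell, and Cdc20 was not called. A match is a description of letters and does not show binding.

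Promoter windows from 250 bases before to 50 bases after the start were matched for 33 of the 40 members. Ccnd1, Ccnd2, Ccne2, Mcm4, Ccna2, Aurkb and Tpx2 were not matched. The E2F motif was found in 8 of 19 G1/S and replication genes (42.1%) and in 1 of 14 G2/M and mitosis genes (7.14%), and in 2.6% of 27025 genes with a window. The CHR motif was found in 3 of 19 G1/S genes (15.8%) and 11 of 14 G2/M genes (78.6%), and in 21.7% of all genes with a window. A CCAAT box was found in 57.9% of the G1/S genes and 92.9% of the G2/M genes, and in 41.1% of all genes. Lower calls were found among members with and without each motif. Of the 9 members with an E2F match, 6 fell, 1 rose and 2 were not called, with a median log2 fold change of -0.68. Of the 24 without one, 19 fell and 5 were not called, with a median of -0.45. The split was widest for the CCAAT box: of the 24 members with one, 20 fell, 1 rose and 3 were not called (median -0.65), and of the 9 without one, 5 fell and 4 were not called (median -0.26). Among the G1/S genes, 10 of 11 with a CCAAT box fell and 4 of 8 without one. The G2/M genes did not show this: 10 of 13 with a CCAAT box fell, and 1 of 1 without one. Shares of lower calls among all genes with and without the box were not computed, and the split was not tested. Of the 14 members with a CHR match, 10 fell, 1 rose and 3 were not called (median -0.53), and of the 19 without one, 15 fell and 4 were not called (median -0.47).

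**Figure D1:**
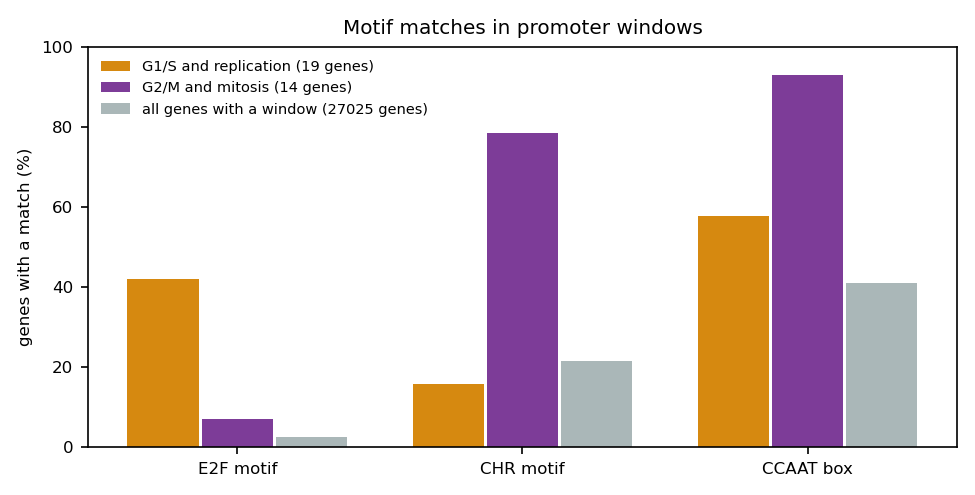
Share of genes (%) with a match to each motif in the promoter window, for G1/S and replication genes, G2/M and mitosis genes, and all genes with a window. E2F matches stood in 42.1% of the G1/S genes and CHR matches in 78.6% of the G2/M genes, against 2.6% and 21.7% of all genes.

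Transcripts of most cell cycle genes were lower after tunicamycin in both phases. All 40 members passed the filter on low counts, and 31 fell, 1 rose and 8 were not called by edgeR's quasi-likelihood test at a Benjamini-Hochberg adjusted p under 0.05 over 15660 genes. The response was wide: 32.5% of all genes tested were called lower and 31.8% were called higher, so the members' counts are read against these shares. Upper-quartile scaling shifted log2 fold changes by a median of -0.115 and called 3632 genes higher and 6934 lower, against 4983 higher and 5082 lower with TMM scaling. The share of members that fell was 77.5%. The members' median log2 fold change (tunicamycin over DMSO) was -0.50, and that of all genes tested was -0.02. A log2 fold change of -0.5 or lower was found in 20 of the 40 members and in 11.4% of all genes. In 24 members all 6 tunicamycin libraries lay below all 4 DMSO libraries in CPM (counts scaled to 1e6 per library), an arrangement found in 23.9% of all genes.

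The phases had nearly the same median. Of the 23 G1/S and replication genes, 18 fell, 1 rose (Mcm7) and 4 were not called (Cdk6, Cdc6, Cdt1 and Tyms), and the median log2 fold change was -0.50. Of the 17 G2/M and mitosis genes, 13 fell, none rose and 4 were not called (Aurka, Cdc20, Kif11 and Tpx2), and the median was -0.495. The groups did not overlap in 18 of the 23 G1/S genes, 17 lower and 1 higher. They did not overlap in 7 of the 17 G2/M genes, all lower. At an unadjusted p under 0.05 none of the 17 was higher, nor in the DESeq2 test. The difference between the phases was not tested.

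**Figure D2:**
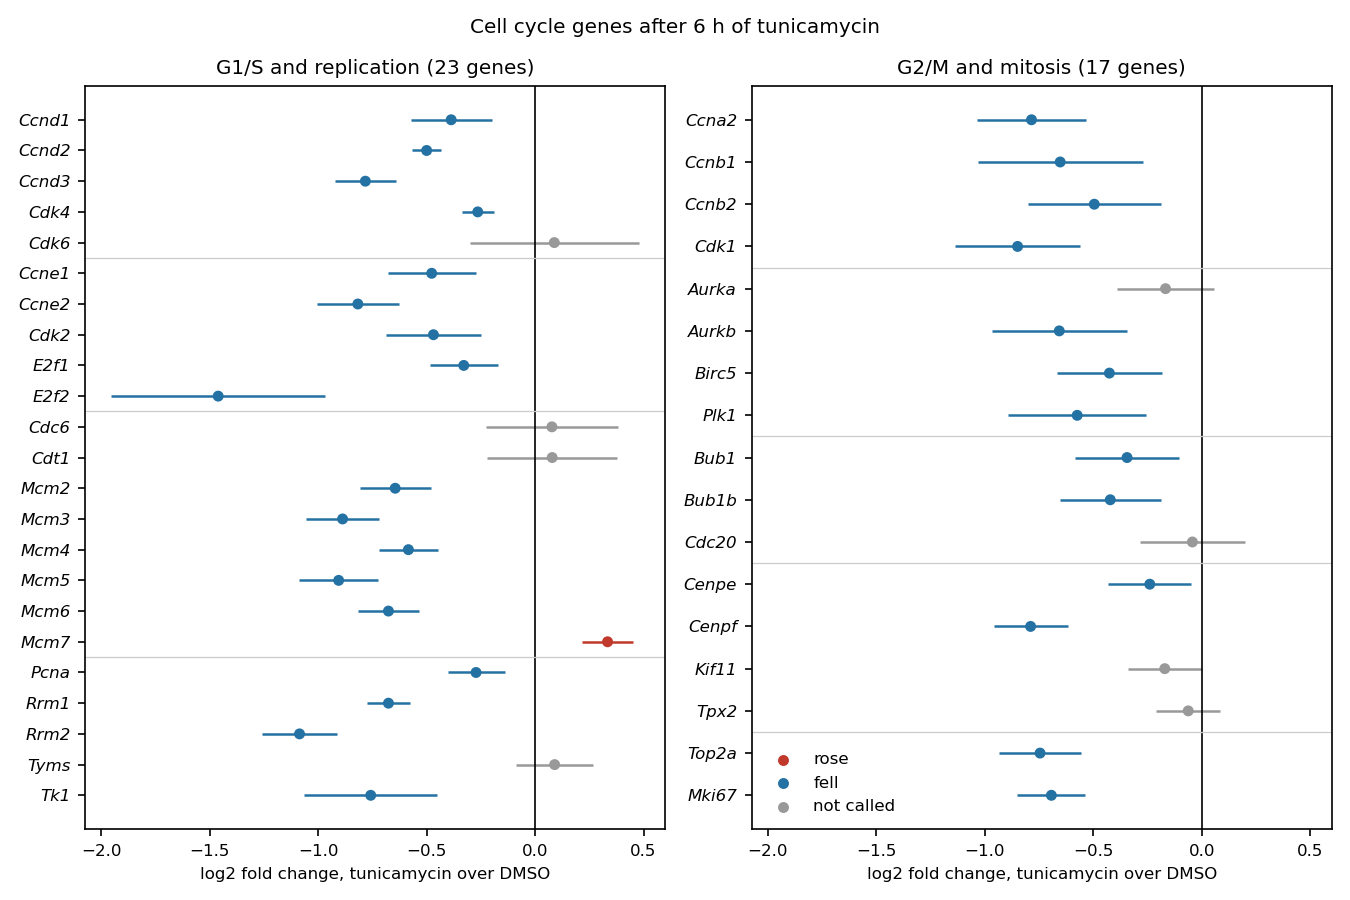
Log2 fold change (tunicamycin over DMSO) of each of the 40 genes, with its 95% confidence interval as a line, by phase and with grey lines between roles. The values run from -1.46 (E2f2) to 0.33 (Mcm7), the only gene that rose.

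Summed over genes, the replication transcripts other than D cyclins, Cdk4 and Cdk6 came to between 132 and 147 CPM in the tunicamycin libraries, and between 186 and 222 CPM in the DMSO libraries. The mean sum was 29.3% lower with tunicamycin. The G2/M and mitosis genes summed to between 99.1 and 116 CPM in the tunicamycin libraries and between 134 and 177 CPM in the DMSO libraries, a mean 30.1% lower. No tunicamycin library reached the level of any DMSO library in either sum.

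**Figure D3:**
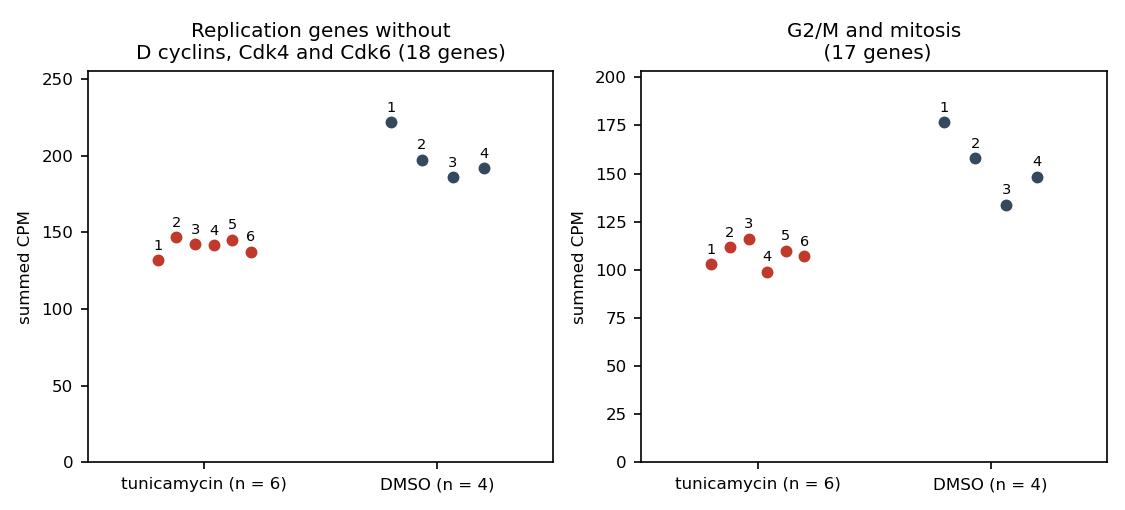
Summed CPM in each library for 18 replication genes and for 17 G2/M and mitosis genes, with points labelled by replicate number. The tunicamycin libraries lie below the DMSO libraries in both panels, and DMSO replicate 1 is the highest library in both.

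Among the DMSO libraries, replicate 1 had the highest CPM for 30 of the 40 members. Its CPM was a median 1.17 times the mean of the other DMSO libraries over the G1/S genes and 1.31 times over the G2/M genes, and 1.02 times over all genes tested. Without that library, 18 G1/S genes and 12 G2/M genes fell. The median log2 fold change was then -0.52 for G1/S genes and -0.35 for G2/M genes. The file names place the libraries on 3 sequencing lanes. Lane 1 held 2 tunicamycin and 2 DMSO libraries, and lanes 2 and 3 held 2 tunicamycin libraries and 1 DMSO library each. Within lanes 1, 2 and 3 the median log2 fold change was -0.59, -0.36 and -0.52 for G1/S genes, and -0.60, -0.27 and -0.41 for G2/M genes. It was below 0 in 20, 19 and 19 of the 23 G1/S genes and in 17, 13 and 17 of the 17 G2/M genes.

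The D cyclins and their kinases fell in 4 of 5 genes. Ccnd2, a D cyclin that partners Cdk4 and Cdk6, had a lowest, median and highest level of 300.1, 312 and 324 CPM in the tunicamycin libraries, against 425, 435, 436.5 and 452 CPM in the DMSO libraries. Every tunicamycin library was far below every DMSO library. Its log2 fold change was -0.50 ± 0.03 (SE), with an edgeR adjusted p of 6.11e-12. Ccnd3 had a log2 fold change of -0.78 and Cdk4 one of -0.26, and in both the groups did not overlap. Ccnd1 fell by 0.39 on the log2 scale, with overlapping groups. Cdk6 was not called. It had a lowest, median and highest level of 7.55, 8.65 and 10.8 CPM in the tunicamycin libraries, against 11.1, 9.61, 6.78 and 5.53 CPM in the DMSO libraries. The DMSO libraries lay on both sides of all tunicamycin libraries. The 95% interval of its log2 fold change ran from -0.30 to 0.48.

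The E cyclins, Cdk2 and the E2F factors fell in 5 of 5 genes, and no tunicamycin library reached a DMSO library in any of them. Ccne2, an E cyclin that activates Cdk2, had a lowest, median and highest level of 3.23, 3.96 and 4.12 CPM in the tunicamycin libraries, against 6.33, 7.17, 6.505 and 6.57 CPM in the DMSO libraries. The fitted log2 fold change of Ccne2 was -0.82 ± 0.09 (SE), with an edgeR adjusted p of 7.20e-08. Ccne1, the other E cyclin, fell by 0.48 on the log2 scale, Cdk2 by 0.47 and E2f1, an activating E2F factor, by 0.33. E2f2, another activating E2F factor, had the lowest log2 fold change of all members, -1.46 ± 0.24 (SE), with an edgeR adjusted p of 1.32e-05. It rested on few reads, between 6 and 26 counts per library. Its level lay between 0.236 and 0.382 CPM in the tunicamycin libraries and between 0.725 and 1.13 CPM in the DMSO libraries.

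Licensing and helicase genes were the role with calls in both directions. Cdc6 and Cdt1 bring the Mcm2 to Mcm7 helicase to origins, and neither was called. The helicase subunits fell in 5 of 6 genes and rose in 1. Mcm3 had a lowest, median and highest level of 5.07, 5.74 and 6.58 CPM in the tunicamycin libraries, against 12.1, 10.4, 10.4 and 10.1 CPM in the DMSO libraries. All tunicamycin libraries were clearly lower. Mcm3 fell by 0.89 ± 0.08 (SE) on the log2 scale, with an edgeR adjusted p of 3.06e-09. Mcm5 fell by 0.91 on the log2 scale, Mcm6 by 0.68, Mcm2 by 0.64 and Mcm4 by 0.58, and the groups did not overlap in any of these.

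Mcm7, a subunit of the same helicase ring, went the other way. Its lowest, median and highest levels were 15.5, 15.8 and 16.4 CPM in the tunicamycin libraries, against 13.7, 11.9, 11.99 and 12.4 CPM in the DMSO libraries. Every tunicamycin library was above every DMSO library. Its log2 fold change was 0.33 ± 0.06 (SE), with an edgeR adjusted p of 2.33e-05, and it was 0.22 under upper-quartile scaling, with an edgeR adjusted p of 0.00178. The Mcm7 count is uncertain: 12.6% of its exonic bases overlap other genes and 18.1% of its 50-base words occur in transcripts of other genes. Of the overlapping genes, Ap4m1 had a log2 fold change of 0.23 and Cops6 one of -0.20, and the microRNA genes Mir25 and Mir93, which lie within Mcm7, were at 0 in all libraries. The part of the overlap in the higher Mcm7 count was not tested.

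Cdc6 had a lowest, median and highest level of 1.497, 1.64 and 1.95 CPM in the tunicamycin libraries, against 1.52, 1.70, 1.80 and 1.31 CPM in the DMSO libraries. The 95% interval of its log2 fold change ran from -0.23 to 0.38. Cdt1 had a lowest, median and highest level of 3.23, 4.22 and 5.18 CPM in the tunicamycin libraries, against 5.42, 3.48, 3.23 and 3.67 CPM in the DMSO libraries. The groups overlapped in both genes, and the interval for Cdt1 ran from -0.22 to 0.38. These intervals do not reach the log2 fold changes of the 5 helicase genes that fell.

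The clamp and nucleotide supply genes fell in 4 of 5. Rrm1, the large subunit of ribonucleotide reductase, had a lowest, median and highest level of 20.2, 20.9 and 22.4 CPM in the tunicamycin libraries, against 35.9, 33.6, 31.4 and 33.5 CPM in the DMSO libraries. The groups were well apart. On the log2 scale Rrm1 fell by 0.68 ± 0.05 (SE), with an edgeR adjusted p of 3.81e-11. Rrm2, the small subunit, fell further, by 1.09 on the log2 scale. Tk1, the cytosolic thymidine kinase, fell by 0.76, and Pcna, the sliding clamp of the replication polymerases, by 0.27, with no overlap between the groups in any of these. Tyms, the thymidylate synthase, was not called. It had a lowest, median and highest level of 4.86, 5.69 and 5.92 CPM in the tunicamycin libraries, against 4.90, 5.21, 5.07 and 5.62 CPM in the DMSO libraries. The groups overlapped, and the 95% interval of its log2 fold change ran from -0.09 to 0.27.

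**Figure D4:**
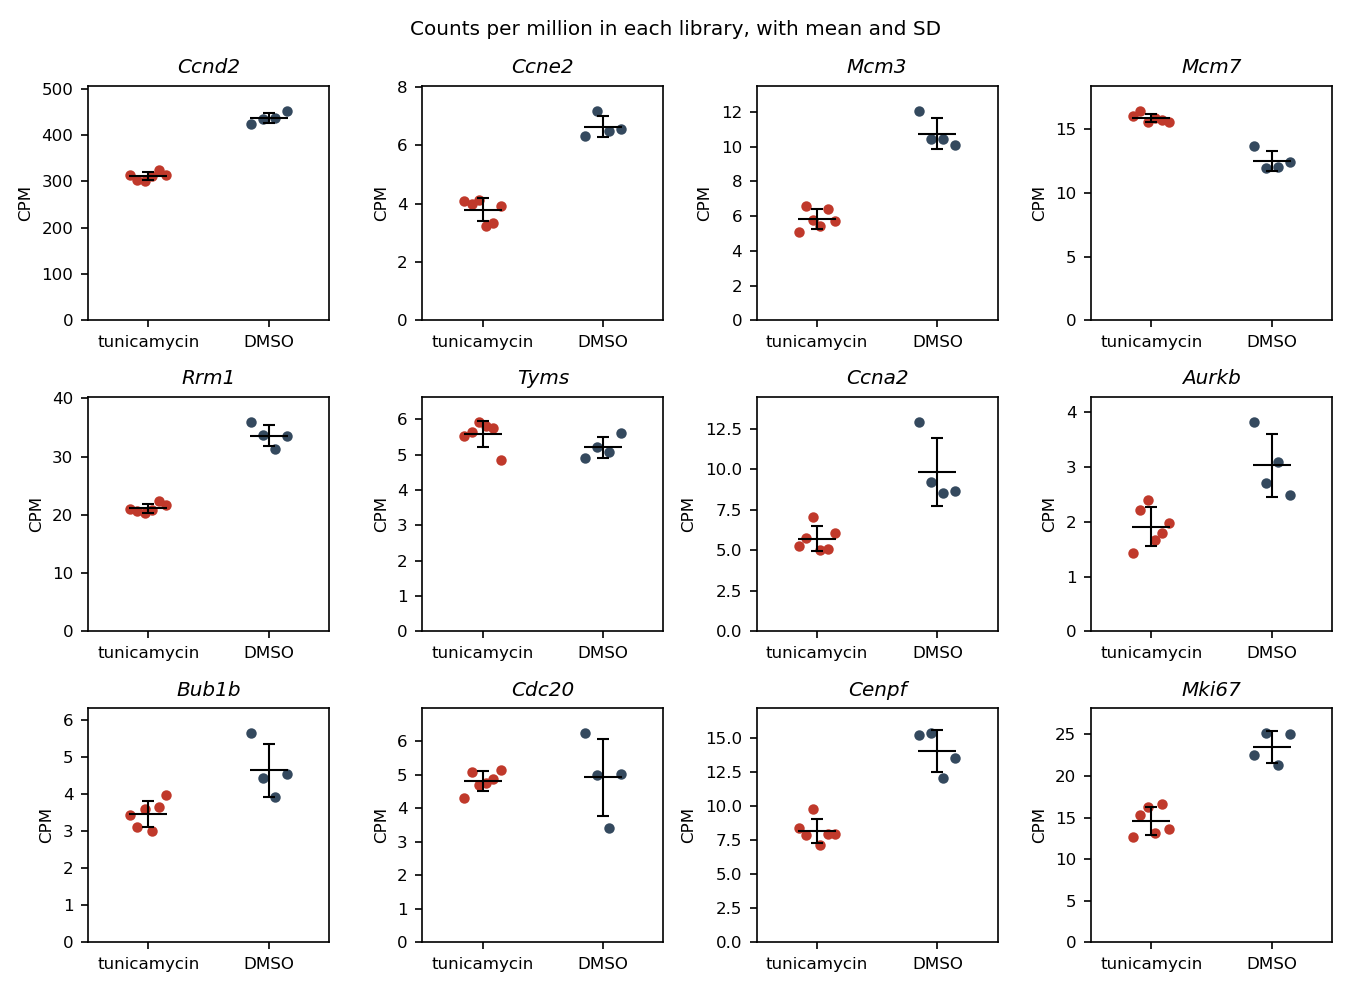
CPM in each library for 12 genes, tunicamycin (6 points) left of DMSO (4 points), with bars for the mean and SD. The tunicamycin points lie below all DMSO points for Ccnd2, Ccne2, Mcm3, Rrm1, Ccna2, Aurkb, Cenpf and Mki67, and above them for Mcm7. The groups overlap for Tyms and Cdc20. For Bub1b only the highest tunicamycin point stands above the lowest DMSO point.

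The mitotic cyclins and Cdk1 fell in 4 of 4 genes. Ccna2, the cyclin of late S phase and G2, had a lowest, median and highest level of 5.03, 5.52 and 7.06 CPM in the tunicamycin libraries, against 12.9, 9.21, 8.53 and 8.66 CPM in the DMSO libraries. The groups did not overlap, although DMSO replicate 1 stood above the other DMSO libraries. Its log2 fold change was -0.78 ± 0.12 (SE), with an edgeR adjusted p of 1.54e-05. Cdk1, the kinase that drives mitosis, had a lowest, median and highest level of 3.48, 4.45 and 5.11 CPM in the tunicamycin libraries, against 10.8, 7.36, 6.505 and 6.84 CPM in the DMSO libraries. It fell by 0.85 on the log2 scale, again with no overlap and with DMSO replicate 1 highest. Ccnb1 fell by 0.65, with overlapping groups, and the groups of Ccnb2 overlapped as well. The call of Ccnb2 rested on DMSO replicate 1: its log2 fold change was -0.495 with that library and -0.29 without it (edgeR adjusted p = 0.0601).

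The mitotic kinases and the chromosomal passenger complex fell in 3 of 4 genes. Aurkb, the kinase of that complex, had a lowest, median and highest level of 1.43, 1.89 and 2.40 CPM in the tunicamycin libraries, against 3.81, 2.70, 3.09 and 2.49 CPM in the DMSO libraries. The groups came close but did not overlap. Aurkb fell by 0.66 ± 0.15 (SE) on the log2 scale, with an edgeR adjusted p of 6.18e-04. Plk1, a kinase of mitotic entry and exit, fell by 0.57 on the log2 scale, with overlapping groups. Its log2 fold change was -0.85, 0.28 and -0.65 within lanes 1, 2 and 3. Birc5, or survivin, a member of the passenger complex, fell by 0.43, with no overlap. Aurka, a kinase of the spindle poles, was not called. It had a lowest, median and highest level of 3.397, 4.32 and 4.77 CPM in the tunicamycin libraries, against 5.51, 4.66, 4.06 and 4.76 CPM in the DMSO libraries. The groups overlapped, and the 95% interval of its log2 fold change ran from -0.39 to 0.06.

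Of the spindle checkpoint and anaphase genes, 2 of 3 fell. Bub1b, which encodes the checkpoint protein BubR1, had a lowest, median and highest level of 2.99, 3.51 and 3.97 CPM in the tunicamycin libraries, against 5.64, 4.44, 3.92 and 4.53 CPM in the DMSO libraries. The highest tunicamycin library stood just above the lowest DMSO library. Its log2 fold change was -0.42 ± 0.11 (SE), with an edgeR adjusted p of 0.00229. Bub1, a kinase of the same checkpoint, fell by 0.34, also with overlapping groups. Cdc20, the activator of the anaphase-promoting complex that the checkpoint holds back, was not called. It had a lowest, median and highest level of 4.32, 4.81 and 5.13 CPM in the tunicamycin libraries, against 6.24, 4.99, 3.41 and 5.03 CPM in the DMSO libraries. The DMSO libraries spread to both sides of all tunicamycin libraries, and the 95% interval of the log2 fold change ran from -0.29 to 0.20.

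Kinetochore and spindle motor genes fell in 2 of 4, and in 4 of 4 under upper-quartile scaling. Cenpf, a large protein of the kinetochore, had a lowest, median and highest level of 7.12, 7.93 and 9.81 CPM in the tunicamycin libraries, against 15.2, 15.3, 12.04 and 13.5 CPM in the DMSO libraries. The groups did not overlap. On the log2 scale Cenpf fell by 0.79 ± 0.08 (SE), with an edgeR adjusted p of 2.29e-08. Cenpe, a kinetochore motor, had overlapping groups and a log2 fold change of -0.24 with an edgeR adjusted p of 0.028. That call ended without DMSO replicate 2 (adjusted p 0.157), DMSO replicate 4 (0.104) or tunicamycin replicate 5 (0.0761). Kif11, the motor that pushes spindle poles apart, was not called. It had a lowest, median and highest level of 7.25, 7.97 and 9.06 CPM in the tunicamycin libraries, against 9.54, 9.91, 8.26 and 7.98 CPM in the DMSO libraries. The groups overlapped, and its edgeR adjusted p was 0.0736. It was called lower without DMSO replicate 4 (adjusted p 0.0384) and without tunicamycin replicate 2 (0.0324). Tpx2, an activator of Aurka on the spindle, had a lowest, median and highest level of 11.97, 13.4 and 14.9 CPM in the tunicamycin libraries, against 15.1, 14.6, 12.1 and 13.2 CPM in the DMSO libraries. These ranges largely coincided, and the 95% interval of its log2 fold change ran from -0.21 to 0.09.

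Both genes of chromosome structure fell. Mki67, which encodes the proliferation marker Ki-67, had a lowest, median and highest level of 12.7, 14.5 and 16.6 CPM in the tunicamycin libraries, against 22.5, 25.1, 21.3 and 25.1 CPM in the DMSO libraries. Every tunicamycin library was below every DMSO library. Mki67 fell by 0.69 ± 0.07 (SE) on the log2 scale, with an edgeR adjusted p of 9.96e-08. Top2a, the topoisomerase that untangles chromosomes, had a lowest, median and highest level of 17.4, 21.5 and 22.3 CPM in the tunicamycin libraries, against 42.4, 33.6, 30.3 and 32.7 CPM in the DMSO libraries. Top2a fell by 0.745 on the log2 scale, and its groups did not overlap.

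Counts of 7 members are uncertain, because the library kit does not mark strand and reads can come from overlapping genes or near-identical copies. Besides Mcm7, at least 10% of exonic bases overlapped another gene in Ccnd1, Cdk4, Ccne2 and Ccna2. The overlapping genes rose with tunicamycin while these members fell: the log2 fold change was 0.25 for LTO1 beside Ccnd1, 0.26 for Tspan31 beside Cdk4, 0.40 for Ints8 beside Ccne2 and 0.43 for Exosc9 beside Ccna2. Pcna and Ccnb1 shared 19.1% and 23.4% of their 50-base words with transcripts of other genes. Of the 33 members without such doubt, 25 fell, none rose and 8 were not called.

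The members differed widely in level. In reads per kilobase of merged exons and per 1e6 counts (RPKM), Ccnd2 averaged 33.0 in the tunicamycin libraries and 46.4 ± 1.19 in the DMSO libraries (SD, n = 4), the highest of the 40. Cdk4 followed with 19.0 RPKM in the tunicamycin libraries and 22.6 ± 1.21 in the DMSO libraries, and Ccnd1 with 13.2 RPKM in the tunicamycin libraries and 17.1 ± 2.29 in the DMSO libraries. The next gene, Pcna, averaged 5.34 RPKM in the tunicamycin libraries and 6.40 ± 0.448 in the DMSO libraries, and the other 36 members were lower than Pcna in the DMSO libraries. The lowest were Cdc6, with 0.321 RPKM in the tunicamycin libraries and 0.303 ± 0.0408 in the DMSO libraries, and E2f2, with 0.0649 RPKM in the tunicamycin libraries and 0.179 ± 0.0358 in the DMSO libraries. Ccnd3, the other D cyclin, averaged 1.82 RPKM in the tunicamycin libraries and 3.11 ± 0.363 in the DMSO libraries, within the range of the replication and mitosis genes.

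Of 109 other cell cycle genes, 50 fell, 21 rose and 38 were not called, and the median log2 fold change was -0.18. Under upper-quartile scaling 66 fell and 13 rose. Among the G1/S genes 25 of 61 fell and 15 rose, and among the G2/M genes 25 of 48 fell and 6 rose. The shares were 45.9% lower and 19.3% higher, beside 32.5% and 31.8% of all genes tested.

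Of the CDK inhibitors 3 of 7 rose (42.9%) and 2 fell (28.6%), shares near the 31.8% higher and 32.5% lower of all genes tested. Cdkn1a, which encodes the inhibitor p21, averaged 82.6 CPM in the tunicamycin libraries and 54.8 CPM in the DMSO libraries, and its log2 fold change was 0.58 ± 0.05 (SE), with an edgeR adjusted p of 7.30e-09. Cdkn2d, an inhibitor of Cdk4 and Cdk6, averaged 41.4 CPM in the tunicamycin libraries and 59.9 CPM in the DMSO libraries (log2 fold change -0.54 ± 0.04). Cdkn2c, of the same family, fell by 1.02 on the log2 scale. The higher call of Cdkn1b, the inhibitor p27, ended under upper-quartile scaling (adjusted p = 0.183). Of the retinoblastoma family and the other E2F genes, 3 of 11 fell (27.3%) and 2 rose (18.2%), both below the shares of all genes tested. Under upper-quartile scaling 6 fell, with Rbl2, E2f8 and Tfdp1 added, and 1 rose. Rb1, the retinoblastoma gene, had a log2 fold change of 0.10 and was called higher under 7 alternatives, among them lane as a term (adjusted p 0.0418) and leaving out DMSO replicate 4 (0.0296), tunicamycin replicate 5 (0.025) or tunicamycin replicate 6 (0.0369), and its log2 fold change was -0.012 under upper-quartile scaling. E2f3 fell by 0.70 and Tfdp2, a partner of E2F factors, by 0.44. E2f4 rose by 0.27, or by 0.16 under upper-quartile scaling, and E2f5 rose by 0.24, a call that ended under that scaling (adjusted p = 0.0572).

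Of the origin recognition and firing genes 6 of 15 fell and 6 rose, beside 32.5% lower and 31.8% higher of all genes tested. The higher call of Cdc45 ended under upper-quartile scaling (adjusted p = 0.0617), under which Mcm10 was called lower (adjusted p = 0.0198). The lower call of Gins2 (log2 fold change -0.33) ended in the DESeq2 test (adjusted p = 0.0683), with lane as a term (0.0845), in the libraries numbered 1 to 4 with the replicate number as a block (0.0789) or without it (0.0549), and on leaving out any of DMSO replicates 1 and 2 or tunicamycin replicates 1, 3 and 6, with adjusted p up to 0.167. Mcm10 was also called lower without tunicamycin replicate 2 (0.0498) or 3 (0.0189). The origin recognition complex marks the sites where the helicase is loaded. Of its 6 subunits, singled out here after their values had been seen, 4 rose and none fell, also at an unadjusted p under 0.05 and in the DESeq2 test. Orc4 averaged 87.9 CPM in the tunicamycin libraries and 51.3 CPM in the DMSO libraries, with a log2 fold change of 0.77 ± 0.05 (SE) and an edgeR adjusted p of 1.07e-09. Orc2 averaged 54.2 CPM in the tunicamycin libraries and 31.9 CPM in the DMSO libraries, with a log2 fold change of 0.76 ± 0.05 (SE). The Orc2 count is uncertain, since 29.8% of its exonic bases overlap another gene. Orc3 rose by 0.28 and Orc5 by 0.31, or by 0.17 and 0.19 under upper-quartile scaling, and Orc1 and Orc6 were not called. Orc6 was called higher without DMSO replicate 1 (adjusted p 0.0427). Polymerases and fork factors fell in 9 of 21 genes (42.9%) and rose in 3 (14.3%), and under upper-quartile scaling 15 fell and 1 rose. Uhrf1, which recruits the maintenance methyltransferase to new DNA, fell by 0.73, with a count that is uncertain for near-identical copies, and Dnmt1, that methyltransferase, fell by 0.19, or by 0.30 under upper-quartile scaling. Pold2, a subunit of polymerase delta, rose by 0.34, or by 0.22 under that scaling, and the calls of Pold3 and Rfc3, with log2 fold changes of 0.16 and 0.17, ended under it. The call of Rfc3 also ended in the DESeq2 test and on leaving out any of DMSO replicates 2, 3 and 4 or tunicamycin replicates 1, 2, 4, 5 and 6.

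Nucleotide supply genes outside the 40 fell in 5 of 7 (71.4%), beside 32.5% of all genes tested. Dut, which removes dUTP, fell by 0.50 on the log2 scale, and Tk2, the mitochondrial thymidine kinase, rose by 0.33, or by 0.22 under upper-quartile scaling. In the G2 checkpoint 3 of 8 fell and 2 rose. Clspn, the adaptor of the kinase Chek1, fell by 1.09 and Cdc25b, a phosphatase that activates Cdk1, by 0.74. Chek1 rose by 0.38 on the log2 scale (adjusted p 0.00262 in edgeR). Chek2 rose by 0.30 (adjusted p 0.0477 in edgeR), a call that ended in the DESeq2 test, under upper-quartile scaling and on leaving out any of DMSO replicates 1, 2 and 4 or tunicamycin replicates 1, 3 and 4. None of the 5 mitotic transcription factors was called by edgeR's test, and those with the smallest p were Lin52 and Lin54, subunits of the complex that acts at CHR elements, with log2 fold changes of 0.13 and 0.09. None passed an unadjusted p under 0.05 or the DESeq2 test. Both Lin genes were called higher without DMSO replicate 4 (adjusted p 0.0203 for Lin52 and 0.0305 for Lin54).

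The other kinetochore and checkpoint genes fell in 8 of 13 (61.5%) and rose in 2 (15.4%). Of all genes tested 32.5% were lower and 31.8% higher. The lower calls of Spc24 and Incenp (log2 fold changes -0.447 and -0.162) did not hold throughout. They ended in the DESeq2 test (adjusted p 0.0712 and 0.0641) and with lane as a term (edgeR adjusted p 0.0716 and 0.0701). Both also ended on leaving out any of DMSO replicates 1 and 3 or tunicamycin replicates 1, 4 and 6. Nuf2, of the kinetochore complex that holds microtubules, fell by 0.88 on the log2 scale, and Mad2l1, the checkpoint protein Mad2, by 0.51. Bub3 rose by 0.22, or by 0.11 under upper-quartile scaling. Sgo1, which protects centromere cohesion, had a log2 fold change of 0.40, a call that ended under that scaling (adjusted p = 0.0574). Spindle and cytokinesis genes fell in 7 of 11 with none higher, among them Hmmr, a spindle protein, which fell by 0.58, and Ckap2, which fell by 0.57. At an unadjusted p under 0.05 none of the 11 was higher either, nor in the DESeq2 test. Anln, a scaffold of the cytokinetic ring, had a log2 fold change of 0.14 and was called higher with lane as a term (adjusted p 0.0199), without DMSO replicate 1 (0.0345) and without DMSO replicate 2 (0.0467). Condensin and anaphase genes fell in 7 of 11 and rose in 2. Ncapd2, a condensin subunit, fell by 0.51. Cdc27, a subunit of the anaphase-promoting complex, rose by 0.30, or by 0.18 under upper-quartile scaling. Anapc1, of the same complex, had a log2 fold change of 0.11 and one of -0.002 under that scaling.

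**Figure D5:**
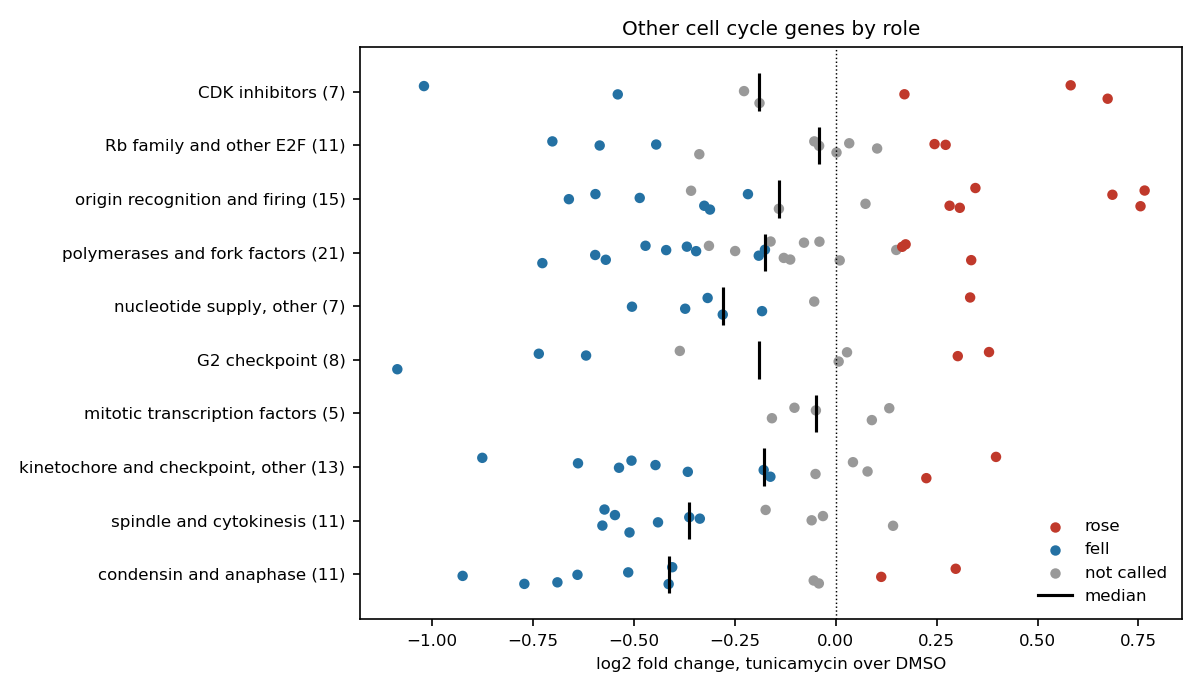
Log2 fold change (tunicamycin over DMSO) of 109 other cell cycle genes by role, with the number of genes in brackets, a point for each gene coloured by its call and a black line at the median of each role. Spindle and cytokinesis genes and condensin and anaphase genes have the lowest medians, -0.36 and -0.41, and higher calls came to 3 of 7 CDK inhibitors and 6 of 15 origin genes, beside 31.8% of all genes tested.

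Glia and progenitors are among the cell types that can divide in such cultures, and markers of these and other cell types are given here beside the members. The libraries held high levels of neuronal markers, and 12 pan-neuronal genes summed to between 6963 and 7308 CPM in the tunicamycin libraries and between 8201 and 8677 CPM in the DMSO libraries. Of these 12, 10 fell (83.3%), beside 32.5% of all genes tested, and the median was -0.19 on the log2 scale. All 12 astrocyte markers fell, and the median of their log2 fold changes was -0.66. Their sum lay between 2409 and 2660 CPM in the tunicamycin libraries and between 3520 and 3961 CPM in the DMSO libraries. DMSO replicate 1, the highest library in the members' sums, had the lowest astrocyte sum of the DMSO libraries, 3520 CPM, and the lowest pan-neuronal sum, 8201 CPM. The same library had the highest neural progenitor sum of the DMSO libraries, 2019 CPM, and the highest endothelial sum, 75.05 CPM. Kdr alone held 73.66 CPM of that endothelial sum. Vim, a progenitor marker, had 726 CPM in this library and 457 to 583 CPM in the other DMSO libraries. Map2, of the pan-neuronal genes, had 2055 CPM here and 2354 to 2532 CPM there. The astrocyte marker Slc1a2 had 1070 CPM here and 1273 to 1357 CPM there. DMSO replicate 1 was the highest DMSO library for 2 of 12 astrocyte, 4 of 12 pan-neuronal and 6 of 10 progenitor markers. Its sums for the other cell types lay between those of other DMSO libraries. Within lanes 1, 2 and 3 the median log2 fold change was -0.55, -0.76 and -0.71 for the astrocyte markers, and -0.59, -0.33 and -0.47 for the 40 members. The highest in level, Slc1a2, a glutamate transporter, averaged 961 CPM in the tunicamycin libraries and 1244 CPM in the DMSO libraries. Oligodendrocyte precursor markers fell in 3 of 4 tested genes (median -0.83), or in 5 of 5 without DMSO replicate 2, and their sum lay between 86.3 and 110.0 CPM in the tunicamycin libraries and between 145 and 200.4 CPM in the DMSO libraries. The lower call of Pdgfra ended in the libraries numbered 1 to 4, with the replicate number as a block (edgeR adjusted p 0.0718) or without it (0.0809).

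Microglia markers fell in 5 of 7 tested genes (median -1.15), and their sum was low, between 12.1 and 14.7 CPM in the tunicamycin libraries and between 16.8 and 20.3 CPM in the DMSO libraries. The defining microglia genes P2ry12, Tmem119 and Itgam were near 0 and did not pass the filter, and the same held for Sox10 and Gpr17 of the oligodendrocyte lineage. Neural progenitor markers fell in 6 of 10 genes and rose in 2, with a median log2 fold change of -0.18, near the -0.19 of the pan-neuronal genes, and their sum lay between 1567 and 1671 CPM in the tunicamycin libraries and between 1789 and 2019 CPM in the DMSO libraries. Of these, Nes, the progenitor filament nestin, had a log2 fold change of 0.42. Both higher calls ended under upper-quartile scaling (adjusted p 0.0595 for Nes and 0.224 for Hes1). That of Hes1 also ended in the libraries numbered 1 to 4, with or without the replicate number as a block, and on leaving out any of DMSO replicates 2, 3 and 4 or tunicamycin replicates 2, 3, 5 and 6. The lower call of Sox2 (log2 fold change -0.122) ended in the libraries numbered 1 to 4 as well, with or without the block. It also ended with the any-count filter (edgeR adjusted p 0.0784) and on leaving out any of DMSO replicates 1 and 4 or tunicamycin replicates 5 and 6. Endothelial markers were called higher in 1 of 4 tested genes, with sums between 52.6 and 79.1 CPM in the tunicamycin libraries and between 35.6 and 75.1 CPM in the DMSO libraries, and the defining genes Cldn5 and Tek were at or near 0. Fibroblast and mural markers fell in 2 of 8, or in 4 without DMSO replicate 4, with sums between 115 and 204 CPM in the tunicamycin libraries and between 142 and 271 CPM in the DMSO libraries. With the replicate number as a block in the libraries numbered 1 to 4, the lower call of Dcn ended (edgeR adjusted p 0.0646). Under that block Lum was called lower (0.00434) and Col3a1 higher (0.0132). Some marker genes, such as those of astrocytes, are also expressed by progenitors. The part of these cell types in the lower cell cycle transcripts was not tested.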

How the data were processed

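The authors deposited whole-number counts per Ensembl gene for each of 10 libraries (library totals between 21055289 and 29234887), with no normalization. The deposited lists of genes up or down hold a log2 fold change and an adjusted p-value. The submitters' processing notes name STAR 2.5.2b, featureCounts, Subread 1.5.1, FastQC 0.11.5, DESeq2 and mm10. Strand setting and annotation release: not given in the sources used here. Another 20 per-sample columns of the tables were not used.

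Groups came from the agent in the labels. edgeR 4.0.16 (R 4.3.3; quasi-likelihood F test, robust, TMM, filterByExpr, two-sided) was fitted to all libraries, and Benjamini-Hochberg adjustment ran over 15660 genes. CPM are counts over the library total. Names came from GENCODE M21, and 360 unmatched identifiers held 0.0462% of counts. No libraries of a group agreed within counting noise. The code was checked on simulated counts. The members, lists and rules were chosen with earlier results of these data known. Library values are given for the called member with the smallest p in each role, for members against their phase and for uncalled ones (Cdk1, Top2a and E2f2 were added). Of other cell cycle genes, the text names the 2 with the smallest p per role and called ones against their role. A gene with at least 10% of its exonic bases in another gene, or with 50-base words shared with other transcripts in excess of that overlap by 10 percentage points, is called uncertain. Alternatives were DESeq2 1.42.0, upper-quartile scaling, other filters, lane, a replicate block and leaving out each library.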

Additional observations from a re-analysis of the deposited data

Results flagged for a closer look

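In 6 of 84 groups of libraries tested, a library stood apart from the others of its group by Dixon's criterion, where chance flags about 1 in 20 groups. DMSO replicate 1 was the highest DMSO library in 4 of them. It had 19.2 CPM of Mcm2, where the next DMSO library had 16.3 CPM, and 12.1 CPM of Mcm3, where the next had 10.4 CPM. It had 12.9 CPM of Ccna2, where the next had 9.21 CPM, and 4.9 CPM of Birc5, where the next had 3.55 CPM. Tunicamycin replicate 3 had 72.0 CPM of Ccnd1, where the next tunicamycin library had 63.0 CPM. Tunicamycin replicate 6 had 4.86 CPM of Tyms, where the next lowest tunicamycin library had 5.54 CPM.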

How the results depend on the processing

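Over 17 alternatives per gene (16 for a gene that a stricter filter removed), 30 of the 40 members kept their call and direction, and the 18 lower calls of G1/S genes came to between 17 and 18. Leaving out each library in turn gave 18 lower and 1 higher G1/S genes each time, between 12 and 14 lower G2/M genes with none higher, between 47 and 53 lower and between 19 and 22 higher genes of the other 109, and between 4726 and 4997 lower and between 4796 and 4963 higher of all genes. Under upper-quartile scaling 3632 of all genes were higher and 6934 lower, and 16 G2/M genes fell, with Aurka (-0.28), Kif11 (-0.28) and Tpx2 (-0.18) added, and 13 of the other cell cycle genes rose. The signs of uncalled genes turned under it, to -0.027 for Cdk6, -0.037 for Cdc6, -0.036 for Cdt1 and -0.025 for Tyms. Leaving out libraries moved Cdk6 between -0.049 (without DMSO replicate 4) and 0.249 and Cdc20 between -0.168 and 0.084 (without DMSO replicate 1), and Cdt1 was at -0.007 in the 8 libraries numbered 1 to 4, a set added after seeing the data. None of the turned values was called. The cause was not tested.

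Deviations of same-numbered libraries did not go together (correlations of -0.217, 0.00852, -0.0616 and -0.0719). Those of differently numbered libraries ran from -0.155 to 0.183. With so few libraries, these values cannot settle whether the numbers pair the libraries. With the replicate number as a block in those 8 libraries, 18 G1/S and 12 G2/M genes fell and 1 G1/S gene rose, 47 of the other genes fell and 19 rose, and 4417 of all genes were higher and 4398 lower, against 4700 and 4758 without the block. Cenpe was at -0.193 with the block and -0.202 without it, and was called in neither. Of the 40 members, E2f2 had the fewest counts in a library (6) and Ccnb1 the next fewest (25).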

Other observations

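The authors' deposited table of downregulated genes lists 30 of the 40 members, 18 of G1/S and 12 of G2/M, and the authors' deposited table of upregulated genes lists Mcm7 alone among them. Of the 31 members that fell in the edgeR test, Cenpe is in neither deposited table. In the authors' deposited tables the log2 fold changes of the listed members differ from those of the edgeR test by at most 0.02.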
